A study of Glycine max with 63 samples.

Results

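Embryos of a soybean line that carried 2 Arabidopsis genes for seed oil were set against embryos without them at 1 named time. The libraries were taken by the names of the deposited tables: the 3 libraries of the R line at T3 and the 3 Wt libraries at T3, which are 6 of the 36 greenhouse libraries and of the 63 libraries of the series. In the sample titles the R libraries stand as WT at 33 days after pollination and the Wt libraries as WD-1 at 24 days after pollination. The reads of the transgenes went against those titles, so the deposited names were used. By title, Wt T2 was WT at 24 days, Wt T4 was WD-2 at 24 and Wt T5 was WT at 27. G T2, T3, T4 and T5 were titled WD-1 at 27 days, WD-2 at 27, WT at 30 and WD-1 at 30. R T2, T4 and T5 were titled WD-2 at 30 days, WD-1 at 33 and WD-2 at 33. Per the labels, the greenhouse held the cultivar Thorne as WT and the transgenic lines WD-1 and WD-2, which express Arabidopsis WRI1 and DGAT1. Neither the labels nor the tables say which of these lines R or the third line, G, is, which day T3 stands for, which promoter drives the transgenes, or whether the greenhouse plants were homozygous. Each library came from a single peeled embryo, without seed coat or endosperm, and the 3 embryos of a set came from 3 plants. Whether the R and Wt embryos of T3 had the same age therefore cannot be told.

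WRI1 is a transcription factor that switches on genes of glycolysis and fatty acid synthesis in seeds, and DGAT1 is the enzyme that adds the last acyl chain when triacylglycerol, the storage oil, is made. The cotyledons of a maturing soybean embryo change from growth by cell division to the laying down of storage protein and oil. Their transcriptome shifts with that change. The tables identify soybean genes by GLYMA numbers alone, and 0 of these matched the reference table of 59048 genes, so genes appear under these numbers with no role, and storage protein, oil body or other markers of the tissue could not be checked.

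The Wt T3 libraries held 20.3, 17.2 and 6.03 M counts (1 M is 1000000) and the R T3 libraries 3.02, 17.5 and 16.9 M. The floor of 3 counts, which a count of 0 allows, was 0.148 to 0.995 counts per 1000000 (CPM) of all counts in these 6 libraries. It covers counting error only. For the scaled levels used below, the R libraries counted as 2.80, 4.39 and 5.96 M, so their floor lay higher there. R replicate 1 stood apart by its low total and by its small share of the stretch described next. On the scale of log2(CPM + 0.5), the Wt libraries correlated across genes at 0.979 to 0.980 with each other, the G libraries of T3 at 0.988 to 0.991 and the R libraries at 0.928, 0.947 and 0.966. R replicate 1 correlated at 0.928 and 0.947 with R replicates 2 and 3. With Wt T3 it correlated at 0.918 to 0.936, and with G T3 at 0.943 to 0.949. R replicates 2 and 3 correlated at 0.966 with each other, at 0.885 to 0.926 with Wt T3 and at 0.916 to 0.941 with G T3.

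A run of 98 consecutive identifiers, GLYMA_13G013600 to GLYMA_13G023300, took most of the counts of 2 R libraries. It held 19.1, 65.0 and 57.6% of the counts in R T3 replicates 1, 2 and 3, against 12.7, 10.4 and 7.01% in Wt T3 and 4.45, 3.72 and 2.69% in G T3. All R libraries lay above all Wt libraries, but R replicate 1 lay nearer to Wt than to its own set. The run was part of the choice of this comparison, so its values are a description, although its genes stayed in the model. The other R sets held 47.1 to 68.6% at T2, 60.4 to 66.8% at T4 and 6.40 to 52.9% at T5, and the other Wt sets 3.27 to 28.9%.

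Together, 5 genes made up 99.2 to 99.4% of the run in the 6 libraries. The most abundant, GLYMA_13G021200, took 7.21, 6.18 and 4.02% of all counts in Wt T3 and 11.3, 38.9 and 34.1% in R T3. Its share of the run stayed between 56.6 and 59.9% in all 6 libraries. GLYMA_13G020800 made up 13.2 to 16.4% of the run, GLYMA_13G023300 9.72 to 12.3%, GLYMA_13G013600 6.25 to 9.96% and GLYMA_13G015400 6.07 to 7.21%. GLYMA_13G021200 was thus the leading gene of the run in each of the 6 libraries, while the shares of the other 4 varied more in proportion to their size. Of the 98 identifiers 58 passed the filter on low counts. GLYMA_13G024100, GLYMA_U007200 and GLYMA_U005800 lie outside the run and were singled out after their values were seen. Together they held 2.26, 2.31 and 1.59% of the counts outside the run in Wt T3 and 4.08, 40.0 and 27.6% in R T3, so they were high in the same R libraries. What these counts come from was not tested. Library sizes and scaling factors were computed without the run, which left 17.7, 15.4 and 5.61 M counts in Wt T3 and 2.44, 6.14 and 7.18 M in R T3.

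**Figure D1:**
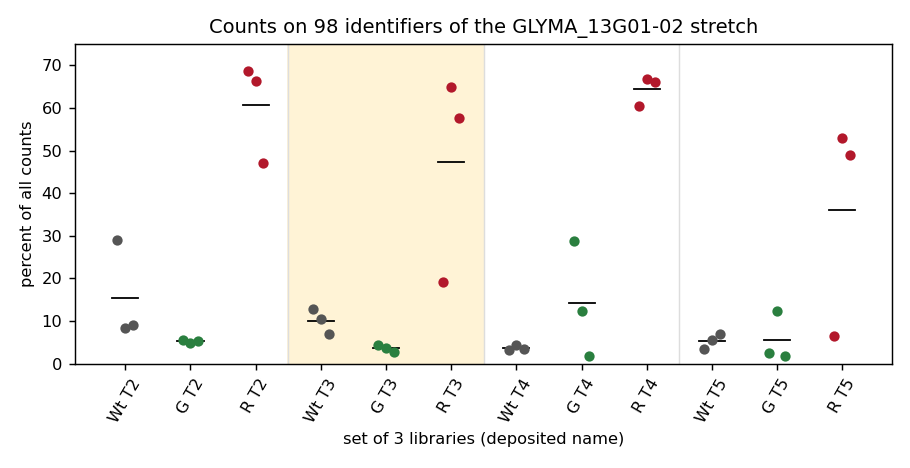
Percent of all counts on the 98 identifiers GLYMA_13G013600 to GLYMA_13G023300 (y axis) in each library (points) of the 12 greenhouse sets (x axis, by deposited name), with the mean of 3 libraries as a line and T3 shaded. The R T3 libraries lie at 19.1, 65.0 and 57.6%, above the Wt T3 libraries at 7.01 to 12.7%.

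Both transgenes were read in every R T3 library and were near 0 in Wt T3. AtWRI1 was at 279, 206 and 224 TMM-normalized CPM in R T3, where TMM is the scaling factor of each library, and at 0.152, 0.445 and 0.332 in Wt T3. AtDGAT, the row of the DGAT1 transgene, was at 41.4, 28.7 and 47.1 in R T3 and at 0.0506, 0.127 and 0 in Wt T3. The groups did not overlap. Since these reads led to the use of the deposited names, they are a description and no test is given. As CPM of all counts, which include the run, AtWRI1 was at 259, 51.7 and 79.0 in R T3, so replicate 1 lay far above the others on that scale. G T3 libraries had 342 ± 8.85 TMM-normalized CPM of AtWRI1 (SD, n = 3) and 56.1 ± 6.17 of AtDGAT, against 236 ± 37.8 and 39.1 ± 9.43 in R T3. No test of R against G is given on these rows, for the same reason. Both rows stayed in the model.

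**Figure D2:**
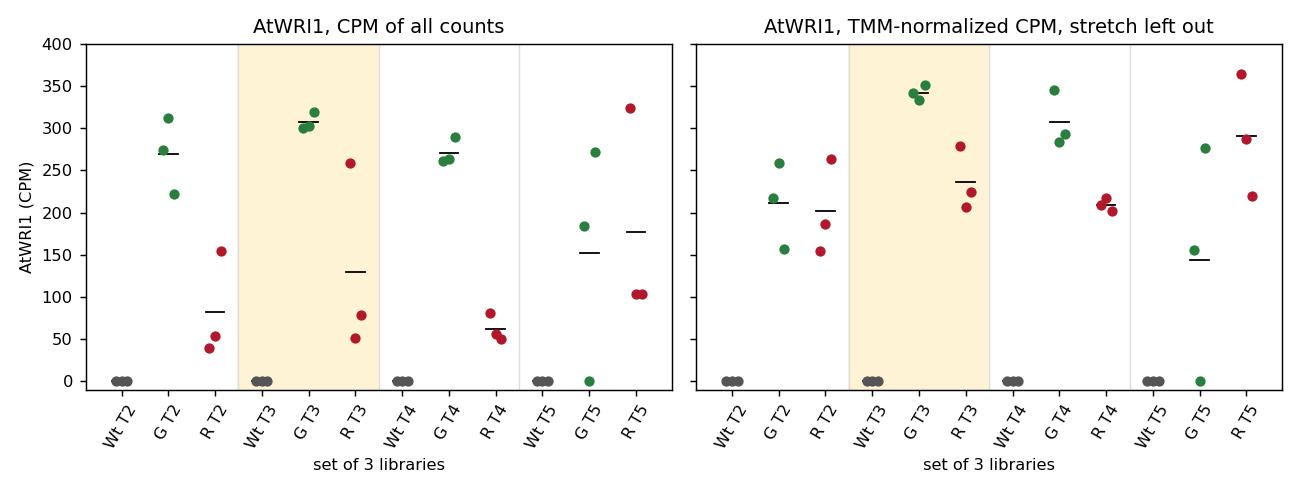
AtWRI1 in each library (points, y axis in CPM) of the 12 greenhouse sets (x axis), as CPM of all counts (left) and as TMM-normalized CPM with the GLYMA_13G run left out of library sizes (right), with set means as lines and T3 shaded. On the left the R T3 libraries spread from 51.7 to 259, and on the right from 206 to 279.

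Of 34613 genes tested, 10242 (29.6%) differed between R and Wt at T3 by edgeR's quasi-likelihood test at an adjusted p below 0.05. The R embryos had 5675 genes higher (16.4%) and 4567 lower (13.2%). The run, which took part in the choice of this comparison, holds 53 of these higher genes and 0 of the lower. Both transgene rows, which led to the use of the deposited names, are also among the higher genes. The run and these rows were kept in the overlaps with other times and with G. The median log2 fold change was 0.95 among the higher genes and -0.95 among the lower, and 2645 higher and 2115 lower genes passed 2-fold, 399 and 242 passed 8-fold, and 97 and 101 passed 32-fold. All 3 R libraries lay above all 3 Wt libraries for 4869 of the higher genes and below them for 4146 of the lower, and of all genes tested, called or not, 19.7% lay above and 19.1% below in this way. In such bulk libraries, fewer cells of a type and less RNA per cell cannot be told apart. The counts depended on single libraries. Without R replicate 2, 6541 genes differed and 2705 were lower. The lower count was 2908 without R replicate 3 and 3027 without Wt replicate 2. With R replicate 1 as the only R library, which is then assumed to vary like the other sets, 1150 genes were higher and 513 lower.

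The genes with the largest fold changes were absent or nearly absent from one side, which a ranking by fold change favors. Of all genes tested, 2 had 0 counts in Wt T3 and at least 5 CPM in each R library. The reverse held for 0 genes. GLYMA_09G074000 had 0 counts in all 3 Wt T3 libraries and was at 22.5, 8.88 and 12.7 TMM-normalized CPM in R T3. Every R library was above every Wt library, and the level in R was at least 187-fold higher against a floor of 3 counts over the Wt set (log2 fold change 10.61, SE 0.88, edgeR adjusted p = 9.48e-10). It also had 0 counts in the other 9 Wt libraries. In G T3 it was at 26.8 ± 0.877 (SD, n = 3), above R (log2 fold change of R minus G -0.93, SE 0.31, edgeR adjusted p = 0.0375). GLYMA_U030600 likewise had 0 counts in Wt T3 and was at 8.56, 6.60 and 9.56 TMM-normalized CPM in R T3, at least 116-fold higher (log2 fold change 9.84, SE 0.90, edgeR adjusted p = 2.71e-09). It was at 14.2 ± 0.913 in G T3 (R minus G -0.77, SE 0.32, edgeR adjusted p = 0.0887).

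GLYMA_15G228700 was at 5.67, 7.25 and 4.48 TMM-normalized CPM in Wt T3 and had 0 counts in R T3. It was thus at least 26.7-fold lower in R (log2 fold change -9.35, SE 0.97, edgeR adjusted p = 1.07e-06, and -7.10 by DESeq2). No R or G library of any time held a count of it, while the Wt sets ran from 3.11 ± 0.681 at T2 to 7.64 ± 0.668 at T5 (SD, n = 3). Its neighbour by number GLYMA_15G228600, singled out after its values were seen, was at 7.80, 6.74 and 6.64 in Wt T3. In R T3 it held 1 count, in replicate 2 (log2 fold change -6.38, SE 0.68, edgeR adjusted p = 8e-09). With counts pooled, Wt stood 95.1 times above R (95% counting interval 16.9 to 3770). Because of that 1 count, the fitted change was -9.65 without replicate 2, and it was -5.60 without replicate 3.

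GLYMA_07G243600 was at 36.8, 51.7 and 49.1 TMM-normalized CPM in Wt T3 and at 1.07, 0.456 and 0 in R T3. The groups were far apart, with a log2 fold change of -6.86 (SE 0.44, edgeR adjusted p = 2.2e-13) and a pooled ratio of Wt to R of 116 (95% counting interval 49.8 to 359). In Wt this gene was at 3.15 ± 0.399 at T2, 105 ± 34.3 at T4 and 100.03 ± 9.34 at T5 (SD, n = 3). The R sets ran from 0 to 0.509 on average and the G sets from 0.107 to 1.33, so neither R nor G libraries held the levels that Wt had from T3 on. The fitted change was -7.82 without R replicate 1 and -6.02 without R replicate 3. Of the 10 genes with the largest rises under the rule for named genes, with log2 fold changes of 7.42 to 10.6, 0 were higher in R than in G at T3 and 7 were lower. Of the 10 with the largest falls, at -9.35 to -4.47, 3 were lower in R than in G and 0 were higher. Over all genes tested 10.3% were higher and 9.17% lower in R than in G, and the comparisons with Wt and with G share the R libraries.

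**Figure D3:**
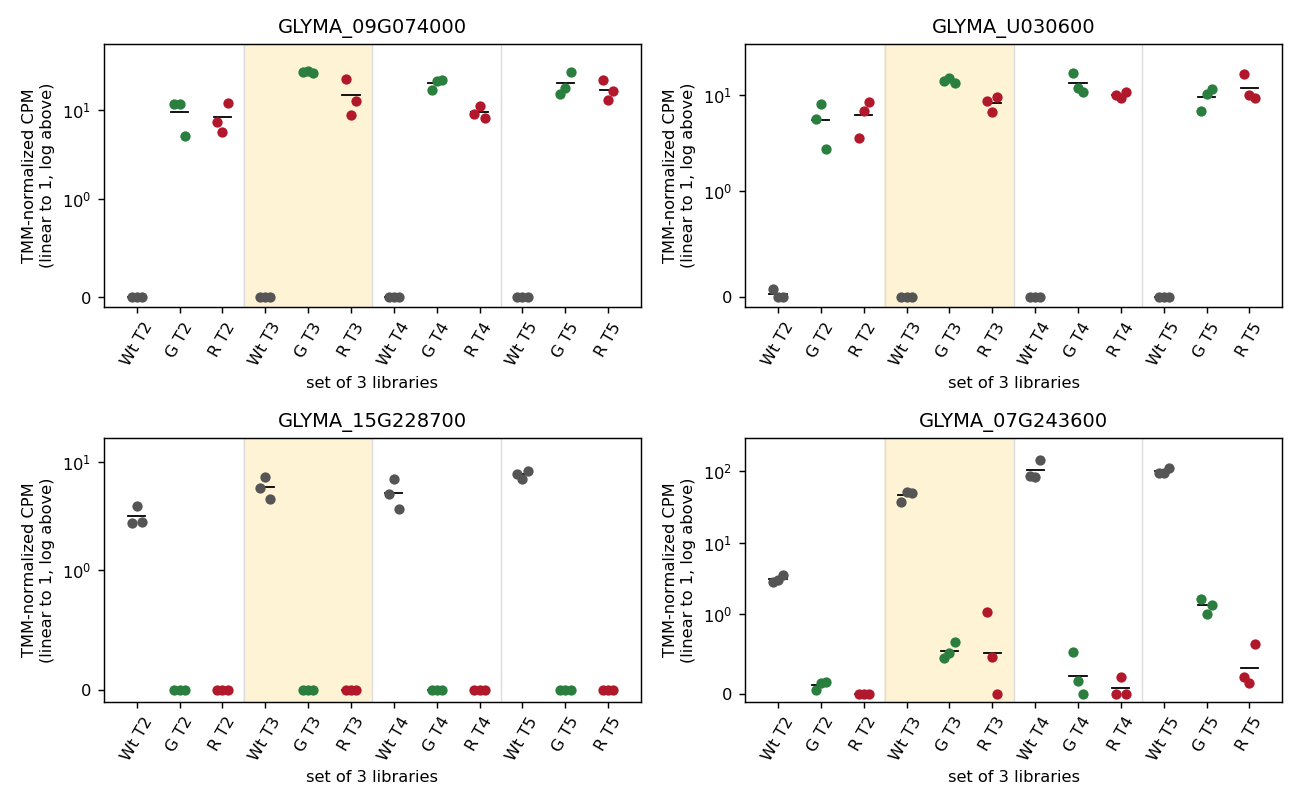
TMM-normalized CPM (y axis, linear to 1 and logarithmic above) of 4 genes in each library (points) of the 12 greenhouse sets (x axis), with set means as lines and T3 shaded. GLYMA_09G074000 and GLYMA_U030600 are at 0 in Wt T3 and at 6.60 to 22.5 in R T3, whereas GLYMA_15G228700 and GLYMA_07G243600 are high in Wt and at 0 to 1.07 in R T3.

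Genes that Wt embryos turn up or down with time were shifted in R at T3. Time here follows the deposited names T2 to T5. The titles put Wt T2, T3 and T4 at 24 days after pollination and Wt T5 at 27. The direction of time was read from Wt T5 against Wt T2, libraries that are not in the T3 comparison, where 9513 genes differed (27.5%): 4210 rose and 5303 fell. Of the 4210 genes that rose with time in Wt, 1531 (36.4%) were lower in R at T3 and 288 (6.84%) higher, with a median log2 fold change of -0.45. Of the 5303 that fell with time, 1674 (31.6%) were higher in R and 303 (5.71%) lower, with a median of 0.43. Over all genes tested the shares were 13.2% lower and 16.4% higher, with a median of -0.01. Each R library showed the pattern: the medians against Wt T3 were -0.32, -0.47 and -0.39 for the rising genes and 0.28, 0.43 and 0.30 for the falling genes. The genes that moved in neither direction with time in Wt numbered 25100, of which 3713 (14.8%) were higher and 2733 (10.9%) lower in R.

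The mean log2 level of the rising genes minus that of the falling genes, a measure added after seeing the data, put the R embryos between Wt T2 and Wt T3. It was 1.25, 1.57 and 1.53 in the Wt T3 libraries and 0.806, 0.465 and 0.660 in the R T3 libraries, with no overlap. The Wt sets went from 0.247 ± 0.0448 at T2 to 1.45 ± 0.173 at T3, 2.00 ± 0.126 at T4 and 2.12 ± 0.0737 at T5 (SD, n = 3). R went from 0.0634 ± 0.152 at T2 to 0.644 ± 0.171 at T3, 0.413 ± 0.0237 at T4 and 1.01 ± 0.123 at T5. G T3, at 1.35 ± 0.0250, lay within the range of Wt T3, while G T4 and G T5, at 0.993 ± 0.125 and 1.22 ± 0.138, lay below Wt of the same names. The genes were chosen on Wt T2 and T5, so those 2 sets lie far apart by construction. The part of a difference in the age of the embryos in this shift cannot be told apart from that of the line. With the share of the GLYMA_13G run of each library as a covariate, 993 rising genes were lower in R, beside 2427 lower over all genes tested. In that setting 1127 falling genes were higher, beside 3504 higher over all genes tested. At T3 every R library held a larger share of the run than any Wt or G library. A fit with this covariate therefore cannot fully part the run from the line.

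**Figure D4:**
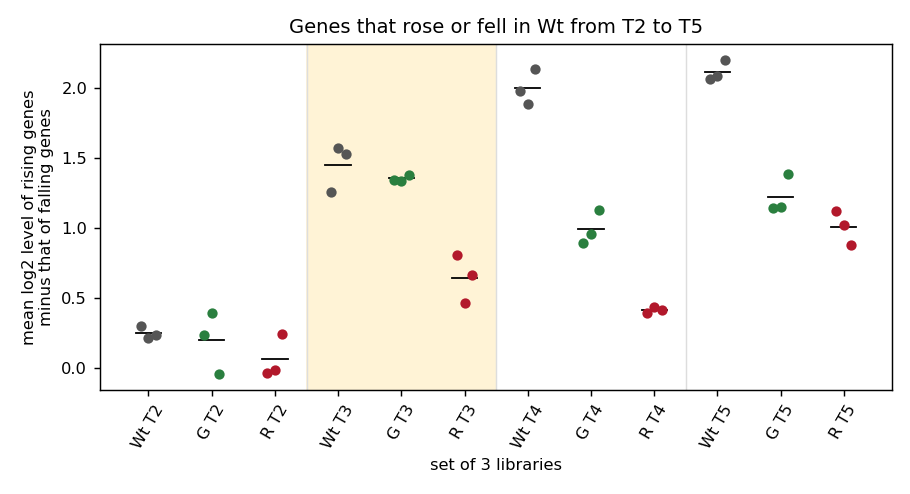
Mean log2 level of 4210 genes that rose in Wt from T2 to T5 minus that of 5300 genes that fell (y axis, log2 units) in each library (points) of the 12 greenhouse sets (x axis), with set means as lines and T3 shaded. The R T3 libraries lie at 0.465 to 0.806, below the Wt T3 libraries at 1.25 to 1.57.

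Among the most abundant genes of Wt embryos, more were lower than higher in R. With genes ranked by their level in Wt T2, T4 and T5, a ranking added after seeing the data, 23 of the 50 most abundant outside the run were lower in R at T3 and 4 were higher, with a median log2 fold change of -0.52, beside 13.2% lower and 16.4% higher over all genes tested. Of the next 450 genes, 154 were lower and 90 higher, with a median of -0.15, and of the 4500 after those, 996 were lower and 1045 higher, with a median of -0.01. The ranking left out the run alone. It kept GLYMA_13G024100, GLYMA_U007200 and GLYMA_U005800, all called higher in R. The median of the 50 was -0.52, -0.59 and -0.47 in the 3 R libraries taken singly. The count of 23 rested on few libraries: it was 14 without R replicate 2, 15 without Wt replicate 2 and 13 with the share of the run as a covariate. Over all genes tested, 2705, 3027 and 2427 were lower in these settings.

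A second run of numbers on GLYMA_13G was higher in R. GLYMA_13G203300 to GLYMA_13G217700 is known from earlier results of these data to stand near 2-fold in a transgenic line of the field libraries, which are not used here. Of its 114 genes tested, 71 were higher in R at T3 and 1 was lower, with a median log2 fold change of 0.88 and quartiles of 0.27 and 1.40. Of the 50 tested genes on each side of it, 100 in all, 15 were higher and 19 lower, with a median of -0.07. Per library, the median of 87 genes of the run with a mean of at least 2 CPM, against the 12 Wt libraries, was 0.780, 0.910 and 0.945 in R T3. In Wt T3 it was 0.00466, -0.0163 and 0.0283. All 3 R libraries lay far above Wt T3 here, and replicate 1 was the lowest of all R libraries. The other R libraries lay between 0.887 and 1.04. The G sets split: G T2 and G T4 lay at 0.871 to 1.03, and G T3 and G T5 at -0.0629 to 0.0626, so whether the name G covers 1 line cannot be told from these libraries. G T3 therefore differed from R in this run (65 of the 114 genes higher in R and 0 lower, with a median of 0.84). With R replicate 1 as the only R library the median log2 fold change of this run against Wt was 0.74. Outside both runs, 408 of 2287 GLYMA_13G genes were higher in R (17.8%), and the other numbered groups of genes, GLYMA_01G to GLYMA_20G, had 13.1 to 18.1% higher and 11.4 to 15.1% lower.

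**Figure D5:**
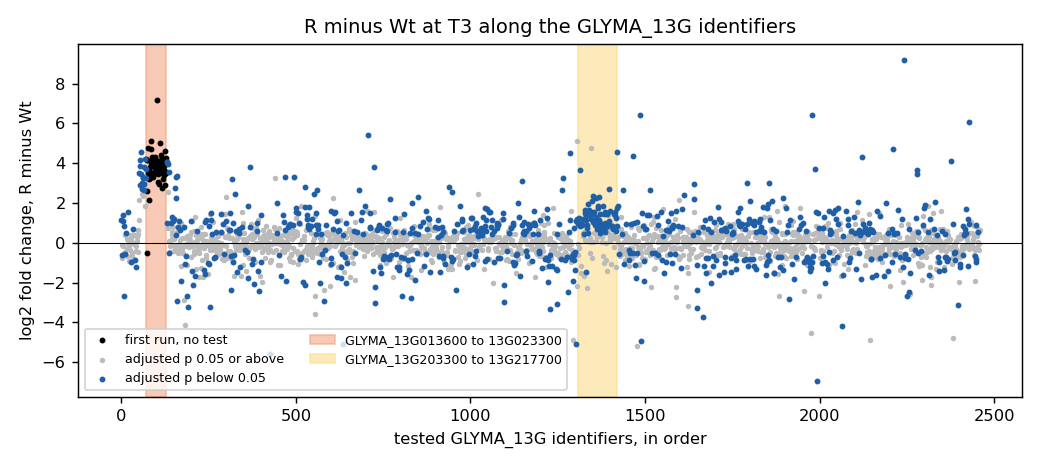
Log2 fold change of R minus Wt at T3 (y axis) of the tested GLYMA_13G genes in the order of their numbers (x axis). Genes of the first run are in black whatever their adjusted p, and the others in blue where it is below 0.05. The genes of the run GLYMA_13G013600 to GLYMA_13G023300 lie around a median of 3.82 (0.59, 4.19 and 3.76 in R replicates 1, 2 and 3 taken singly). Those of GLYMA_13G203300 to GLYMA_13G217700 lie around 0.88.

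R and G embryos also differed from each other at T3, in 6730 of the 34613 genes (19.4%), 3556 higher (10.3%) and 3174 lower in R (9.17%). Of the genes that rose with time in Wt, 1193 were lower and 93 higher in R than in G, and of those that fell, 1256 were higher and 135 lower. The count rested on single R libraries, with 2980 genes without R replicate 2, 4167 without R replicate 3 and 160 with R replicate 1 alone. With the share of the GLYMA_13G run as a covariate 302 genes differed, a setting that cannot fully part the run from the line at T3.

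The difference between R and Wt at T3 was set against that at the other times. The test of T3 against the mean of T2, T4 and T5 called 0 genes (0.0%) by edgeR, with 1983 genes at an unadjusted p below 0.05 (5.73%) and 20 called by DESeq2, so no gene is described here as particular to T3. The comparisons at the other times share no library with T3, and 20.2% of all genes tested differed at T2, 41.0% at T4 and 35.2% at T5. Of the 5675 genes higher at T3, 2842 were called higher at T2 (50.1% of them and 76.7% of those higher at T2), 4390 at T4 (77.4% and 59.4%) and 4312 at T5 (76.0% and 67.8%), where 10.7, 21.4 and 18.4% of all genes tested were higher. Called lower at those times were 13, 14 and 8. Of the 4567 genes lower at T3, 2018 were called lower at T2 (44.2% and 61.1%), 3441 at T4 (75.3% and 50.5%) and 3210 at T5 (70.3% and 55.2%), where 9.54, 19.7 and 16.8% of all were lower. Higher at all 4 times were 2338 genes and lower at all 4 were 1526.

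The libraries named G at T2 and T4 share none with the T3 comparison and, unlike G T3, carry the second GLYMA_13G run at the level of R. They differed from Wt in 27.2% of all genes tested. G T5 shares none with T3 either, but lies near Wt in that run and was left out of this comparison. The overlaps below therefore cover only the G sets that are like R in that run. Of the genes higher in R at T3, 3260 were also higher in G than in Wt (57.4% of them and 60.05% of those higher in G, with 15.7% of all genes higher), and 10 were lower. Of the genes lower in R at T3, 2185 were lower in G (47.8% and 54.7%, with 11.5% of all lower), and 12 were higher. GLYMA_09G074000, GLYMA_U030600, GLYMA_15G228700 and GLYMA_07G243600 were all called in G over T2 and T4 in the same direction as in R at T3.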

How the data were processed

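RNA sequencing measured gene expression in single soybean embryos. Per the file headers, the deposited values are each gene's estimated count, not normalized. Tools in the submitters' processing notes, listed there with no roles, are kallisto 0.43.1, sleuth 0.30.0, FastQC 0.11.5 and R 3.6.3. The sources used here give neither genome build nor annotation. Reads of near-identical gene copies could be divided between them. Each table listed 55897 soybean genes, 2 transgenes and 1 row with no name, which held 0 counts and was left out. Between 64.2% and 87.1% of values were whole, and all were rounded before testing.

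Genes were kept by filterByExpr in edgeR 4.0.16 (R 4.3.3), and 1 model held the 12 greenhouse sets of 3 (36 libraries, biological coefficient of variation 0.167). Library sizes and TMM factors left out GLYMA_13G013600 to GLYMA_13G023300, whose genes were still tested. Sets were compared with edgeR's 2-sided quasi-likelihood test, with p-values adjusted after Benjamini and Hochberg over all genes tested and called below 0.05. The standard error is the size of the log2 fold change divided by the square root of F. Replicates are separate plants, per the labels. Alternatives included DESeq2 1.42.0, other scalings, no filter, a replicate block and leaving out libraries.

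The comparison, gene lists and tests were chosen with earlier results of these data known. The rule for named genes took both transgenes, the 5 most counted genes of the run, and the largest rises and falls among 6902 genes past the threshold with at least 5 CPM in the higher group and no overlap. Only the 2 largest of each are printed, since no identifier matched a gene name, and for the same reason the gene lists (storage proteins, oil bodies, fatty acid synthesis and others) were not run. The time measure, abundance ranks, overlaps with other times and with G, and values per library of the second GLYMA_13G run were added after seeing the data. On simulated counts for R minus Wt at T3 (34424 genes, 200 changed), the test found 68% of the genes changed 2-fold and 99% of those changed 4-fold. It made 6 false calls. The simulated counts had the model's own fitted spread, and R T3 had the levels of Wt T3 apart from the changed genes. The simulation therefore cannot show the error in the real R libraries, which were less alike and crowded by the run. Field libraries were not used. Plots used matplotlib 3.10.9 in Python 3.11.15.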

Additional observations from a re-analysis of the deposited data

How the results depend on the processing

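The main counts for R minus Wt at T3 were 10242 genes, 5675 higher and 4567 lower. With only the libraries compared in the model, which borrows no spread from other sets, 7927 genes differed (4181 higher, 3746 lower). Settings chosen after seeing the data gave 5931, 3504 and 2427 with the share of the GLYMA_13G run as a covariate and 1663, 1150 and 513 with R T3 replicate 1 alone. With the covariate, 3359 of the higher and 2297 of the lower genes were among those of the main model. Of the main model's genes, 5638 of the 5675 higher and 4567 of the 4567 lower kept their sign with the covariate. For R minus G these 2 settings gave 302 and 160 genes in place of 6730. The replicate numbers do not pair the samples, as same-numbered R and Wt libraries correlated at -0.128, -0.057 and -0.117 in their deviations from the set means. With the numbers as a replicate block, 6017 genes differed (3250 higher, 2767 lower), and 3717 for R minus G. Leaving out 1 library at a time gave 6541 to 10635 genes (3836 to 5811 higher, 2705 to 5054 lower) for R minus Wt, 2980 to 7552 for R minus G and 7114 to 9819 for Wt T5 minus T2.

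The 0 genes of T3 against the other times became 2 with scaling from all genes, 9 with no filter, 2 with the covariate, 1 without G T5 replicate 2 (which held no transgene counts), 2 with only the libraries compared, 3 with the replicate block, 20 by DESeq2 and 0 to 4 with 1 library left out. The mean of R T3 was 168 for AtWRI1 and 27.9 for AtDGAT with scaling from all genes, 130 and 20.8 as CPM of all counts, and 215 to 251 and 35.0 to 44.3 with 1 library left out. The mean share of the run was 38.3 to 61.3% likewise.

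The 5 soybean genes with printed changes, GLYMA_09G074000, GLYMA_U030600, GLYMA_15G228700, GLYMA_15G228600 and GLYMA_07G243600, kept their direction and call for R minus Wt at T3 in every setting run for that comparison. Where 1 side held 0 counts, the fitted size depended on the method. By DESeq2 it was 9.89 for GLYMA_09G074000, 9.09 for GLYMA_U030600 and -7.10 for GLYMA_15G228700. The differences of the 5 genes between R and G were not rerun by gene. No scaling moved the median of all genes past -0.052, and the share of higher genes among calls was 55.4%. It was 50.65% with scaling also without the genes that follow the run, 51.4% with scaling from all genes, 50.8% without G T5 replicate 2 and 69.2% with R T3 replicate 1 alone. R T3 replicate 1, at 2.44 M counts outside the run, limits what can be seen of low genes. The causes of these changes with setting were not tested.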
